A study of Homo sapiens with 20 samples.

Results

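The genes described here are 7 members of the Kruppel-like factor family, KLF2, KLF3, KLF4, KLF5, KLF6, KLF9 and KLF10, out of 20033 protein-coding genes. For each gene, every H3K27ac peak and every super-enhancer (SE) that overlapped the gene body or the 50 kb on either side of it was collected in all 16 H3K27ac libraries. The cells were HCT-116, a human colorectal cancer line, with intact FBXW7 (WT) or without it (FBXW7-/-, here KO), in which HDAC4 had been silenced (esiHDAC4) or a control esiRNA against a luciferase had been given (esiCT) for 48 h. Oxaliplatin (OXPT), a platinum drug that crosslinks DNA, was added at 50 µM for the last 24 h, and untreated cells (UNT) received the vehicle. The 8 combinations of genotype, esiRNA and treatment had 2 libraries each, replicate A and replicate B. The study describes A and B as biological replicates and treats the replicate as a batch, and the labels add that material of independent experiments was combined. Whether the KO line is a single clone is not stated.

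Kruppel-like factors are zinc-finger transcription factors that bind GC-rich and CACCC sequences in promoters and enhancers. FBXW7 is the substrate-recognition subunit of an SCF ubiquitin ligase, and the KLF5 and KLF2 proteins are among its known substrates. KLF5 supports proliferation of intestinal crypt cells, whereas KLF4 is expressed in differentiated intestinal epithelium. H3K27ac marks active promoters and enhancers and reports neither the protein level nor the stability of these factors.

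The libraries were unequal in depth. They held between 1752 peaks (KO esiHDAC4 UNT replicate B) and 27927 peaks (WT esiCT UNT replicate A), a 15.9-fold range, and between 66 and 1265 SEs. The background that the fold and p-value of the peaks imply lay between 1.02 and 3.07 reads, and the shallowest lists were replicate B of the 4 KO groups, with at most 8216 peaks. Where a shallow list lacks a peak, acetylation may have been present and gone undetected. Of 10 epithelial and colonic markers 7 had a start-site peak in 8 or more libraries, among them EPCAM, KRT8 and KRT18, while KRT20 and CDX1 had none in any. Of 6 fibroblast and endothelial markers COL1A1 had one in 11 libraries and PDGFRB in 1.

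The 7 windows contained 65 merged peak regions, a region being the union of overlapping peaks of all libraries. Of these, 18 (27.7%) were called in 8 or more libraries, 10 (15.4%) in 12 or more and 1 in all 16. Over the 58860 regions of the genome these shares were 18.3%, 7.66% and 0.802%. The sequences at the centre of 3 regions described below are shown with 3 promoters. Each window is centred on the median summit of a region and was read from the plus strand of hg38.
KLF3 intronic region, chr4:38673593-38673793: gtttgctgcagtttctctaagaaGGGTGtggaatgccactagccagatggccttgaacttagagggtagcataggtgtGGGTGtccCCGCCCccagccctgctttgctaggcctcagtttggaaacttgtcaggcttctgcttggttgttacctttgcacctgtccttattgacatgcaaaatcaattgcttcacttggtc
KLF6 upstream region, chr10:3810767-3810967: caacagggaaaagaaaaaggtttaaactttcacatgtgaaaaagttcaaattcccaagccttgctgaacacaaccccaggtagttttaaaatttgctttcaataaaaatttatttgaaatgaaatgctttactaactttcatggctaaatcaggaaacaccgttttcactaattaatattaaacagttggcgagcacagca
KLF9 upstream region, chr9:70419320-70419520: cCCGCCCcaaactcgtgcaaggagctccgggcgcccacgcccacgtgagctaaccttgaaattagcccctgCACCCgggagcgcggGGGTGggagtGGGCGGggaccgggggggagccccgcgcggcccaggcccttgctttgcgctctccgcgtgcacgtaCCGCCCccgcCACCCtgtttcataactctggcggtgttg
The promoters are from RefSeq (GRCh38.p14), 5′ to 3′ on the strand of the gene, and stop before the first annotated exon base. KLF5 has 2 entries, both on the plus strand, for 4 start sites in GENCODE, and KLF6 lies on the minus strand.
KLF5 first promoter, chr13:73054726-73054975: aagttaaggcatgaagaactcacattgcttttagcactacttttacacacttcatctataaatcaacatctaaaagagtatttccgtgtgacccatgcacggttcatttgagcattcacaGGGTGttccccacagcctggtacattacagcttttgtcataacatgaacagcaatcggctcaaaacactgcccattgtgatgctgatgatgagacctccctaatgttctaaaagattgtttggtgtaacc
KLF5 second promoter, chr13:73058755-73059004: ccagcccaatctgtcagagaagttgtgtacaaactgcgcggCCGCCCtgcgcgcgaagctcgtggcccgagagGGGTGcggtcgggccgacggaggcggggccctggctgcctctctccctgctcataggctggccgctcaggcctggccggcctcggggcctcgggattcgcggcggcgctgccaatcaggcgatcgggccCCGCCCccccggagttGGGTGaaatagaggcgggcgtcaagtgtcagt
KLF6 promoter, chr10:3785282-3785459: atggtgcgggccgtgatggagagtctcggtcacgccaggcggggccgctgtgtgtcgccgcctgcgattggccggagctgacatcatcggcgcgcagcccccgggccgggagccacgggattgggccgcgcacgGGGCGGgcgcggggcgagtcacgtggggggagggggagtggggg
Capitals mark matches, on either strand, to the CACCC box (CACCC), the GC box (GGGCGG), an AP-1 site (TGANTCA) and a MEF2 site (CTANNNNTAG), MEF2 being a transcription factor that HDAC4 binds. Matches of different motifs may overlap. Of the 65 windows around member summits, 26 held CACCC, 6 the GC box (9.23%), 3 the AP-1 site (4.62%) and 2 the MEF2 site (3.08%). Over 58858 region summits 43.5% held CACCC, 13.9% the GC box, 5.26% the AP-1 site and 1292 held the MEF2 site, and over the 250 bases before the start in 35116 promoters the shares were 54.7%, 42.6% and 6.57%, with 2.36% for the MEF2 site. The second KLF5 promoter held 2 CACCC and 2 GC box matches and had a GC content of 70.8%, against 1 CACCC match and 40.8% for the first. The KLF6 upstream window held none of the 4 motifs. A match is a description of the letters only. The promoter table held 5 of the 7 genes.

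KLF5 carried acetylation mainly downstream of its gene body. Its gene (ENSG00000102554, chr13:73054976-73077541, plus strand) had a peak in its window in all 16 libraries, as had 5.82% of protein-coding genes, and a peak within 1 kb of one of its own start sites in 12. Upstream of the gene no peak was called. One region, chr13:73088298-73093203, 10.8 kb beyond the gene's end, was called in all 16 libraries and had the highest mean summit fold of the window, 5.83, where the fold is the ratio of reads at the summit to the local background. Another downstream region, chr13:73095159-73097538, was called in 10 libraries, 7 of them WT. The start-site regions were called less often, chr13:73055366-73056261 in 6 libraries, chr13:73057591-73058660 in 7 and chr13:73059057-73061458 in 10. The second promoter shown above lies between the latter 2. PIBF1 is the other protein-coding gene that overlaps the KLF5 window.

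**Figure D1:**
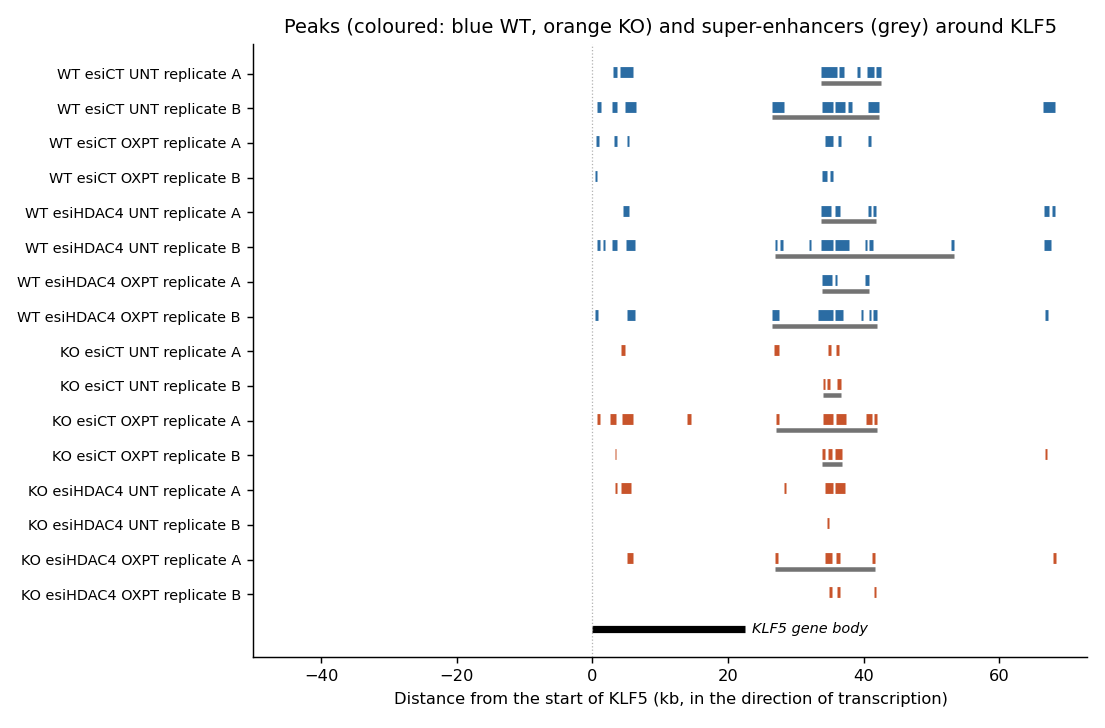
Peaks and SEs of each library around KLF5, plotted by distance in kb from the start of the gene along the direction of transcription. Coloured bars are peaks (blue WT, orange KO), grey bars are SEs and the black bar is the gene body. All 16 libraries have a peak in the downstream region, and the SEs of 10 libraries overlap it.

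The summit fold of the downstream region was 8.26 and 5.35 in WT esiCT UNT cells (replicates A and B) and 4.78 and 4.79 after OXPT. In WT esiHDAC4 cells it was 5.28 and 6.08 without and 5.74 and 4.88 with OXPT. In KO esiCT cells it was 5.41 and 6.04 without and 6.92 and 6.65 with OXPT. With esiCT both OXPT values were below both UNT values in WT cells and above both in KO cells, and in WT esiHDAC4 cells they overlapped. These folds are not centred, and the median fold of the library over the 472 regions called in all libraries separated alike. That median was 7.37 and 6.68 without and 5.54 and 5.09 with OXPT in WT esiCT cells. In KO esiCT cells the median was 6.06 and 5.71 without and 6.33 and 6.11 with OXPT. In KO esiHDAC4 cells the fold was 6.74 and 5.14 without and 4.34 and 6.88 with OXPT, which also overlapped. The folds were compared with limma after each library had been centred on its median over the 472 regions called in all libraries, in a model with group and replicate letter.

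In that model the acetylation of the KLF5 downstream region did not pass an adjusted p of 0.05 in any of the 7 comparisons. KO against WT gave a log2 difference of 0.15 ± 0.12 (SE) with an adjusted p of 0.507, while 12 of 472 regions (2.54%) were called. OXPT against UNT gave 0.04 ± 0.12 (adjusted p = 0.966) and esiHDAC4 against esiCT -0.0098 ± 0.12 (adjusted p = 0.999). The OXPT response was -0.07 ± 0.23 in WT esiCT cells and 0.17 ± 0.23 in KO esiCT cells, and the difference of these responses, KO minus WT, was 0.24 ± 0.33 (limma, adjusted p = 0.975). In OXPT-treated KO cells esiHDAC4 against esiCT gave -0.11 ± 0.23 (limma, adjusted p = 0.991). In each of these 6 comparisons limma called 0 of 472 regions (0%) on centred folds. The unadjusted p of the KLF5 region was above 0.05 in all 7, the lowest being 0.215. Without centring the response was -0.47 in WT esiCT cells (limma, adjusted p = 0.167), where 52 of 472 regions were then called, and the difference of responses was 0.72 (limma, adjusted p = 0.216), where 0 were. Without centring 1 region was called for OXPT against UNT, and it was not that of KLF5 (limma, adjusted p = 0.575).

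**Figure D2:**
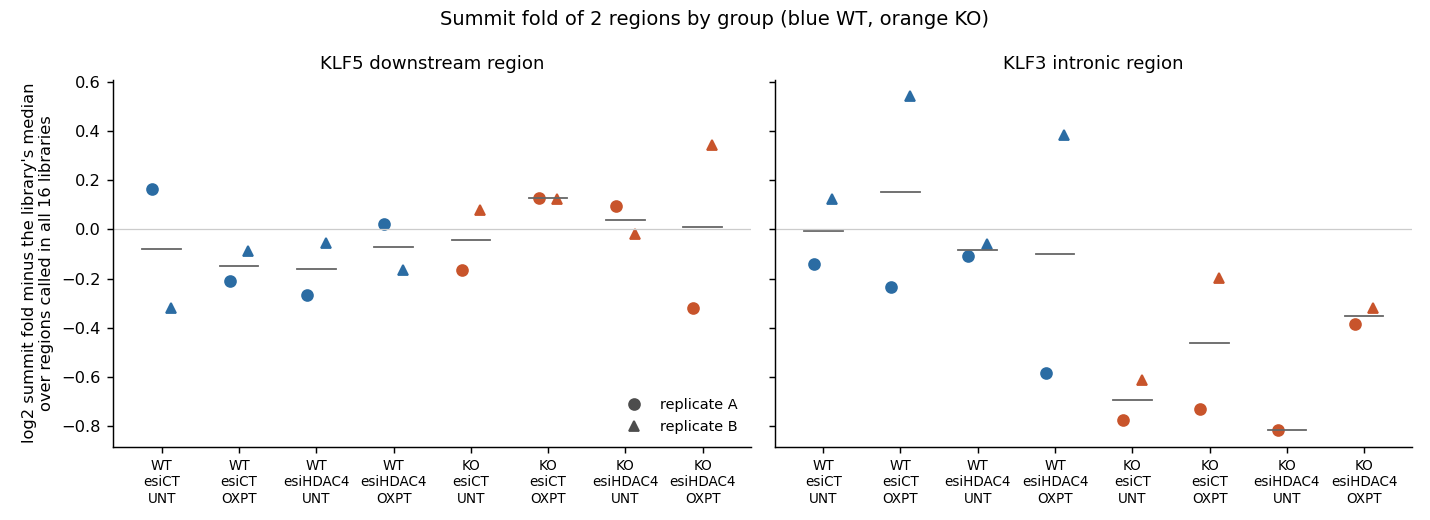
Summit fold, as log2 after subtracting the median of each library over the regions called in all 16 libraries, of the KLF5 downstream region (left) and the KLF3 intronic region (right) in the 8 groups. Circles are replicate A, triangles replicate B and lines group means; 1 KO library has no peak in the KLF3 region. WT and KO points overlap for KLF5, and most KO points lie below the WT points for KLF3.

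The number of peaks in the KLF5 window followed the treatment in opposite directions in the 2 genotypes. In WT esiCT cells there were 7 and 9 peaks without and 6 and 3 with OXPT (replicates A and B), and in WT esiHDAC4 cells 7 and 13 without and 3 and 9 with OXPT. In KO esiCT cells there were 4 and 3 peaks without and 9 and 5 with OXPT, and in KO esiHDAC4 cells 5 and 1 without and 6 and 3 with OXPT. The number was thus lower after OXPT in 4 of 4 matched WT pairs and higher in 4 of 4 matched KO pairs. KLF5 was the only member with this pattern, which 99 of 17651 genes with a peak (0.561%) shared.

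The mean change on the scale of log2(peak number + 1) was -0.75 ± 0.51 (SD, n = 4 pairs) in WT and 0.70 ± 0.38 (SD, n = 4 pairs) in KO cells. The difference, KO minus WT, was 1.45 (p = 0.0286, two-sided exact permutation test over the 8 pairs, the smallest p that these allow), against a median of 0.65 over all genes. After adjustment over all genes it did not pass (adjusted p = 0.412), nor did any of the 17651 genes, of which 1225 (6.94%) had an unadjusted p under 0.05. This comparison exchanged labels over all 8 pairs (70 arrangements), not within replicate letters. Within letters fewer arrangements exist and the smallest possible p is larger. The comparison was chosen after the values had been seen. The length of the whole peak list moved alike, being lower after OXPT in 4 of 4 WT pairs and higher in 3 of 4 KO pairs. Per 10000 peaks of the library the KLF5 number was lower in 4 of 4 WT pairs and higher in 3 of 4 KO pairs. On the log2 scale these changes were -0.02, -0.25, -0.84 and -0.03 in WT and 0.30, 0.27, 0.35 and -0.18 in KO pairs. The difference was 0.47 (p = 0.0857, adjusted p = 0.756, exact permutation test), against a median of 0.22 over all genes. The part of list length in the KLF5 result was not tested beyond this.

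An SE overlapped the KLF5 window in 10 of 16 libraries, which placed KLF5 among the 2.85% of protein-coding genes with one in 8 or more. All 10 SEs lay downstream of the gene and covered 2.68 to 26.5 kb, with a median of 11.8 kb. In WT esiCT cells both UNT libraries and neither OXPT library had an SE, while in WT esiHDAC4 cells all 4 libraries had one. In KO esiCT cells 1 of 2 UNT and both OXPT libraries had one, and in KO esiHDAC4 cells neither UNT library and 1 of 2 OXPT libraries. The deposited SE lists give positions only, so that no SE signal could be compared. The study took into account only SEs that also carried H3K4me1, and the deposited lists were not checked for that mark here.

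**Figure D3:**
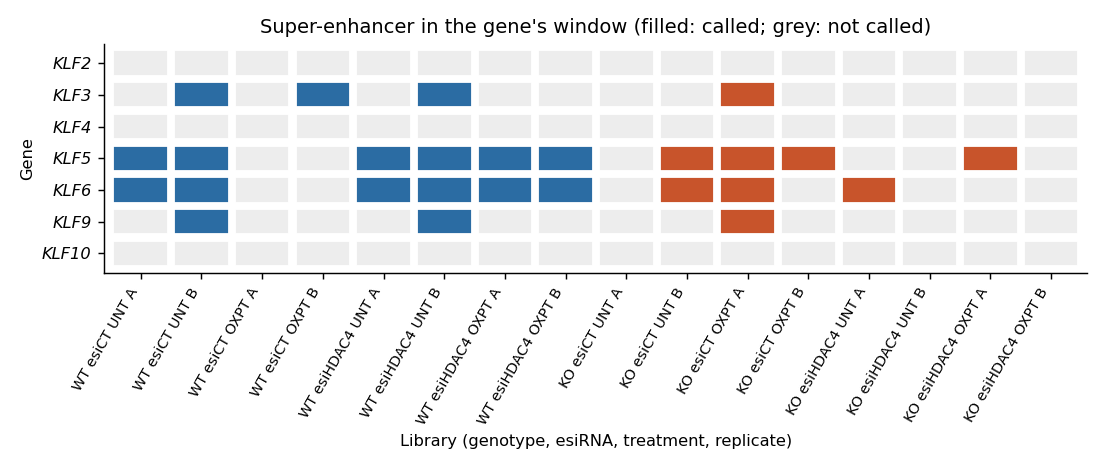
SE calls in the windows of the 7 genes (rows) in the 16 libraries (columns). Filled cells are called (blue WT, orange KO) and grey cells are not. KLF5 and KLF6 are called in the same 6 WT libraries and in neither WT esiCT OXPT library, and KLF2, KLF4 and KLF10 in none.

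KLF6, a factor described as a tumor suppressor in colorectal and other cancers, had the most peaks of the 7 genes. Its gene (ENSG00000067082, chr10:3775996-3785281, minus strand) had between 0 and 15 peaks in its window, with a median of 7.5, and 15 of 16 libraries had at least 1. The 3 start-site regions were chr10:3782111-3785208, with the highest mean fold of the window (5.44) and called in 15 libraries, chr10:3785603-3787737 in 14 and chr10:3781019-3781349 in 1. A cluster of 3 regions 18.9 to 25.2 kb upstream of the gene was called in 12 to 14 libraries, in each case including all 8 WT libraries. The library without any KLF6 peak was KO esiHDAC4 UNT replicate B, the shallowest.

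KLF6 peak numbers were 15 and 8 in WT esiCT UNT cells (replicates A and B), 8 and 6 after OXPT, 6 and 11 in WT esiHDAC4 UNT cells and 8 and 9 after OXPT. In KO cells they were 6 and 7 in esiCT UNT, 12 and 5 in esiCT OXPT, 8 and 0 in esiHDAC4 UNT and 5 and 2 in esiHDAC4 OXPT. WT and KO numbers overlapped. An SE was called in 9 libraries, in the same 6 WT libraries as for KLF5 and in KO esiCT UNT replicate B, KO esiCT OXPT replicate A and KO esiHDAC4 UNT replicate A. In each of the 9 an SE covered the upstream cluster, and WT esiCT UNT replicate A had a second one that reached into the gene and covered a start site.

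In WT esiCT cells the SEs of both KLF5 and KLF6 were present in both UNT and neither OXPT library, a loss seen for 515 of 2293 genes (22.5%) with an SE in at least 1 of these 4 libraries. In OXPT-treated WT cells both genes had an SE in both esiHDAC4 and neither esiCT library, a gain shared with 126 of 1729 genes (7.29%). In OXPT-treated esiCT cells KLF5 alone of the members had an SE in both KO and neither WT library, as had 115 of 1716 genes (6.70%). These contrasts share libraries and are not independent of each other. WT esiCT OXPT, the group without these SEs, held 394 and 284 SEs in all, against 758 and 1265 without OXPT. The groups with the SEs in the other contrasts also held more, 721 and 453 in WT esiHDAC4 OXPT and 930 and 435 in KO esiCT OXPT. The part of list length in these contrasts was not tested.

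KLF3 is a factor that represses transcription through the corepressor CtBP. Its gene (ENSG00000109787, chr4:38664197-38701517, plus strand) had 1 to 9 peaks, with a median of 5, and at least 1 in all 16 libraries. Its start-site regions, chr4:38662901-38663823 and chr4:38664055-38668935, were called in 12 and 15 libraries. An intronic region, chr4:38670724-38675494, had the highest mean fold of the window (5.16) and was called in 15. An SE overlapped the gene in 4 libraries (WT esiCT UNT, WT esiCT OXPT and WT esiHDAC4 UNT, each replicate B, and KO esiCT OXPT replicate A), and all 4 SEs covered part of the intronic region.

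The KLF3 intronic region had lower folds in most KO than in most WT libraries. Its fold in the 8 WT libraries ran from 3.77 to 7.41, and in the 7 KO libraries that called it from 3.54 to 5.32. In replicate B the WT folds were 7.29 (esiCT UNT), 7.41 (esiCT OXPT), 6.08 (esiHDAC4 UNT) and 7.14 (esiHDAC4 OXPT), all above the KO folds of 3.73 (esiCT UNT), 5.32 (esiCT OXPT) and 4.35 (esiHDAC4 OXPT). In replicate A the WT folds were 6.68, 4.72, 5.89 and 3.77 in the same order of groups and the KO folds 3.54, 3.82, 3.57 and 4.15, which overlapped through the WT esiHDAC4 OXPT library. Since 1 KO library had no peak there, the region was outside the set called in all 16 libraries. It was tested in the alternative that takes regions called in at least 12 libraries and in each group, which held 4095 regions and 9 of the members' regions.

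There the log2 difference, KO minus WT, was -0.52 ± 0.14 (SE, limma, adjusted p = 0.0424), and it was the only region of the 9 that was called, whereas 79 of 4095 regions (1.93%) were called genome-wide. The call was not stable. With 1 library left out the difference stayed between -0.62 and -0.45 in 15 fits, of which 3 kept an adjusted p under 0.05 (range 0.0290 to 0.115, limma), those without WT esiHDAC4 UNT replicate B (0.0393), WT esiHDAC4 OXPT replicate A (0.0290) or KO esiCT OXPT replicate B (0.0449). Without KO esiHDAC4 UNT replicate A the region could not be tested, since the other library of that group has no peak there. Without the replicate block it was -0.57 (limma, adjusted p = 0.146), and without centring -0.55 (limma, adjusted p = 0.0323). For OXPT against UNT limma called 1 of 4095 regions (0.0244%) and for esiHDAC4 against esiCT 0 (0%), none of them in a member window. The highest fold anywhere in the KLF3 window, a measure chosen after the values had been seen, differed by -0.26 ± 0.10 between KO and WT (SE, limma, adjusted p = 0.188), while 37 of 1166 genes with a peak in all libraries (3.17%) were called. For KLF5 it differed by 0.08 ± 0.10 (SE, limma, adjusted p = 0.704). Neither OXPT nor esiHDAC4 gave a call among those genes (0% by limma for both).

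KLF9, a factor induced by glucocorticoid and thyroid hormones, had 0 to 6 peaks and at least 1 in 13 libraries. Its gene (ENSG00000119138) lies at chr9:70384604-70414657 on the minus strand, and SMC5 overlaps its window. A start-site peak was called in 3 libraries, although the region that reaches the start site was called in 6. A region 2.84 kb upstream of the gene, chr9:70417494-70421956, was called in 13 libraries with a mean fold of 5.46, the highest of the window, and a single library, KO esiHDAC4 UNT replicate A, reached 9.32. The 3 SEs of KLF9, in WT esiCT UNT replicate B, WT esiHDAC4 UNT replicate B and KO esiCT OXPT replicate A, lay in that region and spanned 3.80 to 4.36 kb. All 3 libraries also had SEs at KLF3, KLF5 and KLF6.

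KLF2, KLF4 and KLF10 had few peaks and no SE in any library. KLF2 (ENSG00000127528, chr19:16324826-16328685, plus strand), which restrains proliferation of endothelial and T cells, had peaks in 6 WT libraries and 1 KO library, with 4 and 3 peaks in WT esiCT UNT cells and 0 and 0 in KO esiCT UNT cells. Its start-site regions chr19:16323916-16324507 and chr19:16324864-16326192 were called in 3 and 4 libraries, all WT, and the former had the highest mean fold of the window (4.42). KLF4 (ENSG00000136826, chr9:107484852-107490482, minus strand) had 0 to 3 peaks. Of its 3 start-site regions, chr9:107488160-107489728 was called in 10 libraries, chr9:107490065-107490586, with the highest mean fold (4.56), in 2 and chr9:107491216-107491532 in 1.

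KLF10 (ENSG00000155090, chr8:102648784-102655725, minus strand), a gene induced by TGF-β, had 0 to 4 peaks. In every one of the 13 libraries with a peak in its window, a peak lay at its start site. Its start-site regions chr8:102652268-102653836 and chr8:102654277-102658099 were each called in 11 libraries, 7 of them WT, and the latter had the highest mean fold (4.95). The 3 libraries without a KLF10 peak were all KO replicate B libraries, and the same 3 also lacked a KLF4 peak.

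**Figure D4:**
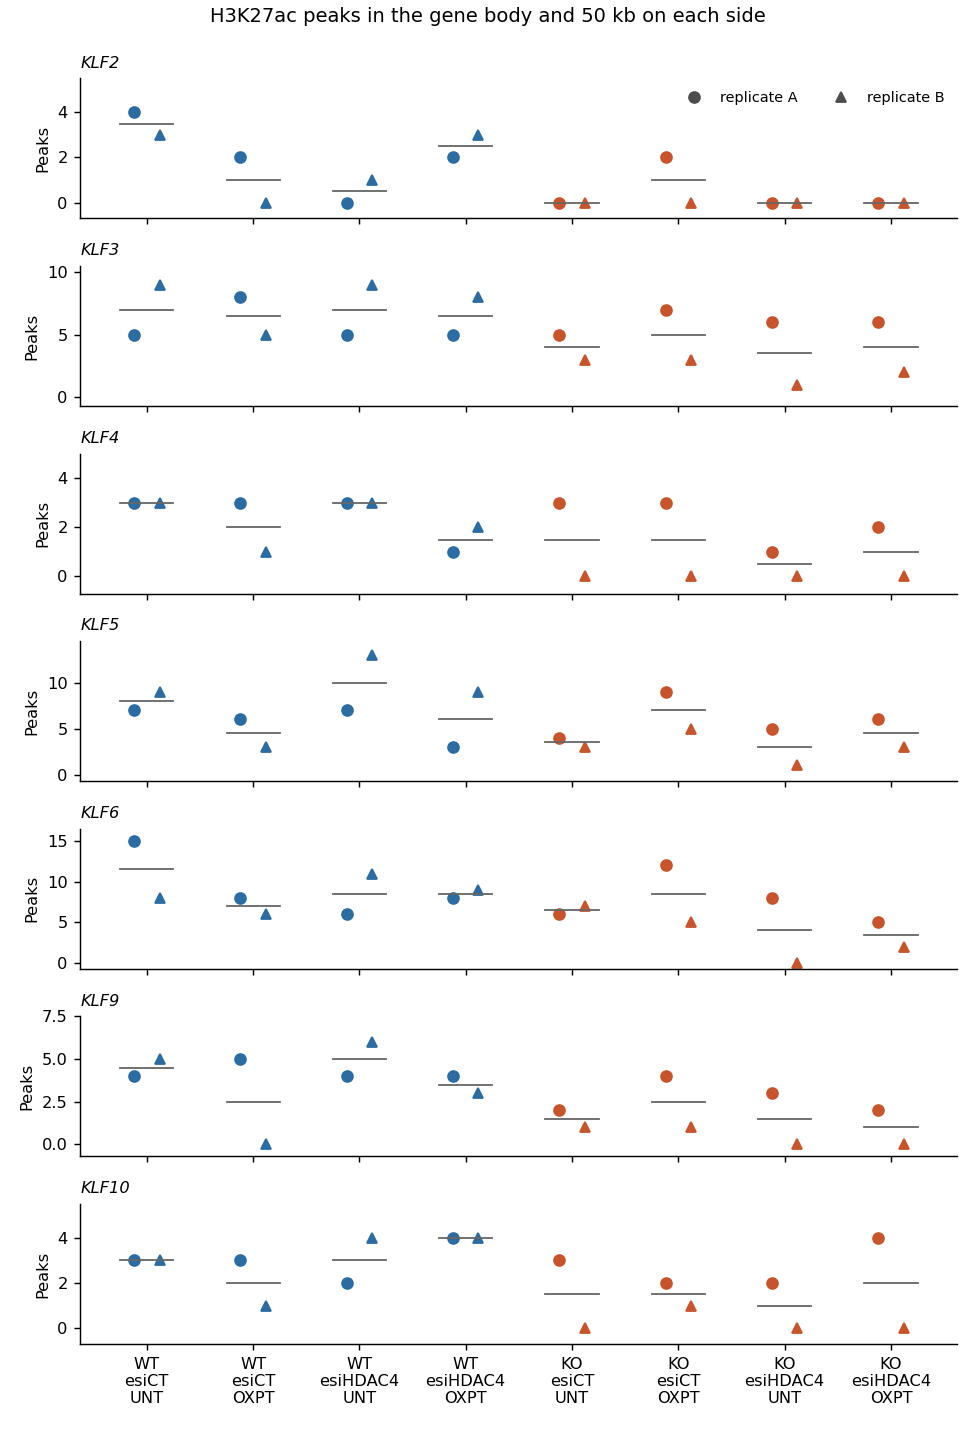
Number of H3K27ac peaks in the gene body and 50 kb on each side for each of the 7 genes in the 8 groups. Circles are replicate A, triangles replicate B, lines group means, blue WT and orange KO. In KO cells replicate B is below replicate A in most panels, and no gene separates WT from KO completely.

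Loss of FBXW7 was compared first. The 7 genes had fewer peaks in KO than in WT libraries, but none passed the test after adjustment. The log2 difference given below was negative for 92.0% of all 17651 genes tested. The mean number was 4.50 ± 2.39 in KO and 7.12 ± 3.31 in WT libraries for KLF5 (SD, n = 8 each) and 5.62 ± 3.66 and 8.88 ± 2.95 for KLF6. For KLF3 it was 4.12 ± 2.17 and 6.75 ± 1.91, and KLF2 had 2 peaks in all over the 8 KO and 15 over the 8 WT libraries. The difference of log2(peak number + 1) was -0.58 for KLF5, -0.69 for KLF3, -0.83 for KLF6, -0.88 for KLF4, -0.88 for KLF10, -0.93 for KLF9 and -1.11 for KLF2. Their median was -0.88, against -0.65 over all 17651 genes tested.

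In two-sided exact permutation tests within replicate letters, 6 of 7 members had an unadjusted p under 0.05, all but KLF5 (p = 0.110), as had 41.2% of all genes. After Benjamini-Hochberg adjustment over all genes 0 of 7 members were called, with adjusted p between 0.0804 and 0.198 (exact permutation tests), whereas 1777 genes (10.1%) were. With 4900 arrangements and a smallest possible p of 4.08e-04, an adjusted p under 0.05 requires that at least 145 genes pass together. The deficit rested on replicate B, in which all 7 differences were negative with a median of -1.43. In replicate A, 5 of 7 were negative with a median of -0.10, and KLF3 (0.07) and KLF5 (0.06) were positive.

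Scaled to the length of each list, the direction for KLF3 and KLF5 turned. Per 10000 peaks of the library the difference was 0.34 for KLF5 and 0.21 for KLF3, but -0.64 for KLF2, with adjusted p of 0.207, 0.354 and 0.203 (exact permutation tests), and the median over all genes was -0.19. Among the 6000 peaks of lowest q in each of the 15 libraries other than KO esiHDAC4 UNT replicate B, KLF5 had 1 to 4 peaks in WT and 1 to 4 in KO libraries, a difference of 0.25 (adjusted p = 0.908, exact permutation test), and KLF6 differed by 0.23 (adjusted p = 0.953, exact permutation test).

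**Figure D5:**
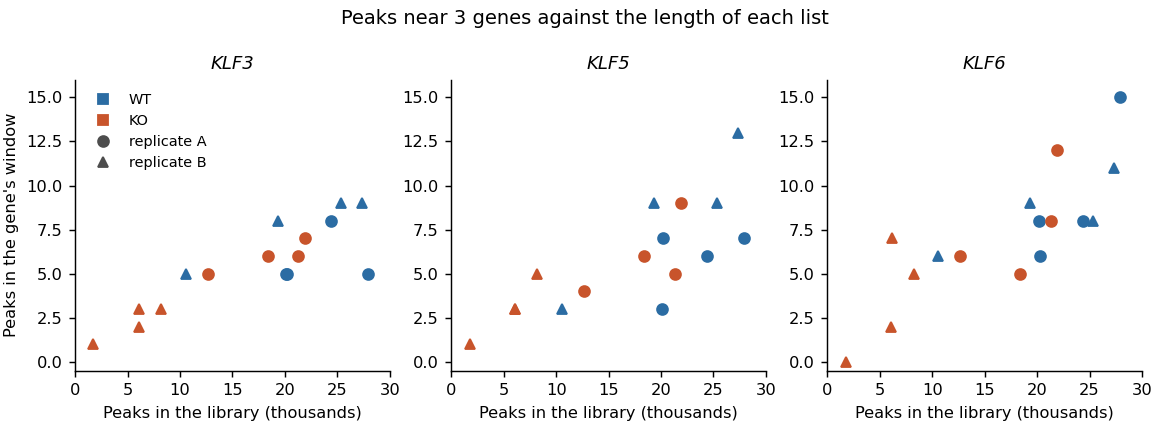
Peaks in the windows of KLF3, KLF5 and KLF6 (vertical axis) against the number of peaks in the library (horizontal axis, in units of 1000 peaks), 1 point a library. Blue is WT, orange KO, circles replicate A and triangles replicate B. The 4 KO replicate B libraries lie at the lower left of each panel, with at most 8216 peaks.

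Within untreated control cells, KLF2, KLF5, KLF6 and KLF9 had fewer peaks in both KO libraries than in either WT library. A deficit without overlap was seen for 10538 of 16498 genes (63.9%), so 4 of 7 members is near the background. An SE was called in 6 WT and 4 KO libraries for KLF5, 6 and 3 for KLF6, 3 and 1 for KLF3, and 2 and 1 for KLF9. None of these 4 genes was called among the 1444 genes with an SE in 3 to 13 libraries (0%, exact permutation tests within letters, adjusted p of 1.00 for KLF3, KLF5 and KLF9 and unadjusted p of 0.329 for KLF6). No member had an unadjusted p under 0.05, and 75 of the 1444 genes had. At least 12 genes would have to pass together for a call.

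OXPT was compared next. Over all 16 libraries KLF5 peak numbers were 5.50 ± 2.51 with and 6.12 ± 3.76 without OXPT (SD, n = 8 each), and those of KLF6 6.88 ± 3.04 and 7.62 ± 4.31. The log2 difference was -0.02 for KLF5, 0.05 for KLF6 and had a median of 0.05 over the 7 genes, against -0.07 over all genes. None of the 7 was called, nor was any gene (0%, adjusted p of 1.00, exact permutation tests), and no member and 196 of 17651 genes (1.11%) had an unadjusted p under 0.05. SEs of KLF5 were called in 5 OXPT and 5 UNT libraries, and those of KLF6 in 3 and 6. No gene was called by SE presence (0%, adjusted p of 1.00, exact permutation tests), with 0 of 4 members and 5 of 1444 genes under an unadjusted 0.05.

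Within single groups the OXPT changes differed between members. In WT esiCT cells KLF2 went from 4 and 3 peaks to 2 and 0, and KLF5 as given above, both lower without overlap, as were 25.9% of 16716 genes. In KO esiCT cells KLF5 was the only member higher without overlap, as were 9.13% of 15528 genes. In WT esiHDAC4 cells KLF4 was lower (3 and 3 to 1 and 2, with 16.2% of genes lower) and KLF2 higher (0 and 1 to 2 and 3, with 3.89% of genes higher). In KO esiHDAC4 cells no member separated. These differences in peak number within single groups were not tested.

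HDAC4 silencing was compared last. KLF6 had the lowest log2 difference among the members, with 6.12 ± 3.68 peaks in esiHDAC4 and 8.38 ± 3.42 in esiCT libraries (SD, n = 8 each). This difference was -0.63 for KLF6 and -0.10 for KLF5, with a median of -0.17 over the 7 genes and 0 over all genes. No member and no gene was called (0%, adjusted p of 1.00, exact permutation tests), and 0 of 7 members and 39 genes (0.221%) had an unadjusted p under 0.05. SEs of KLF5 were called in 5 esiHDAC4 and 5 esiCT libraries, those of KLF6 in 5 and 4. None of the 1444 genes was called by SE presence (0%, adjusted p of 1.00, exact permutation tests), and 0 of 4 members and 3 genes were under an unadjusted 0.05.

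In OXPT-treated KO cells, where the study examined what HDAC4 silencing alters, KLF5 went from 9 and 5 peaks with esiCT to 6 and 3 with esiHDAC4, KLF6 from 12 and 5 to 5 and 2, KLF9 from 4 and 1 to 2 and 0, and KLF3 from 7 and 3 to 6 and 2. These 4 were lower in both matched pairs, as were 2493 of 15726 genes (15.9%), and the libraries of the 2 groups overlapped for each. The mean log2 ratios were -0.55 ± 0.05, -1.06 ± 0.08, -0.87 ± 0.19 and -0.30 ± 0.16 (SD, n = 2 pairs) and were not tested. KLF10 went from 2 and 1 to 4 and 0. The whole lists were also shorter with esiHDAC4, at 18343 and 6084 against 21875 and 8216 peaks, and their part in these differences was not tested. The median over all genes was -0.18. SEs went from 2 to 1 library for KLF5 and from 1 to 0 for KLF6, KLF3 and KLF9. The SE lists were also shorter with esiHDAC4, at 400 and 187 SEs against 930 and 435. The share of all genes with such a loss is not given here, and the part of list length was not tested. In OXPT-treated WT cells KLF10 went from 3 and 1 peaks to 4 and 4, higher without overlap, as were 6.82% of genes, and KLF5 went from 6 and 3 to 3 and 9.

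Of the other 19 members of the KLF and SP families, 17 had a peak in their window in at least 1 library and 11 in 8 or more. Of all protein-coding genes 68.8% had a peak in 8 or more libraries. SEs were called in 8 or more libraries for 2 of the 19 genes, SP1 and SP7, with SEs in 14 libraries each, against 10 for KLF5 and 9 for KLF6. Both lie on chromosome 12 and have other protein-coding genes in their windows. SP1 had a start-site peak in 15 libraries and SP7 in 2, and whether their SEs are the same was not examined. SP3 had a start-site peak in all 16 libraries, and no member had. By peak number KO against WT, KLF16 was called (-1.89, exact permutation adjusted p = 0.0413), as were 10.1% of genes tested. Its difference was -3.32 in replicate B and -0.458 in replicate A, and its window holds 5 other protein-coding genes.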

How the data were processed

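H3K27ac ChIP-seq of HCT-116 cells was analysed in 16 libraries. Per the methods and the submitters' processing notes, the authors used Trimmomatic (0.39) for trimming, Bowtie2 (2.4.4) for alignment to hg38 and SAMtools (1.18) for alignment files, and called peaks per library with MACS2 (2.2.7.1). The deposited peak files hold the fold (ratio of summit pileup to local background), −log10 p and q values and a score, and the deposited SE files positions only. Read counts were not used here, so depth was judged from the number of peaks and the background they imply.

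Peaks were assigned to GENCODE coding genes extended by 50 kb. Summit folds on the log2 scale were centred per library and compared with limma (3.58.1) in R (4.3.3), with the replicate letter as a block. Peak numbers, as log2(number + 1), and SE presence were compared with exact two-sided permutation tests within letters, with Benjamini-Hochberg adjustment over all genes and a threshold of 0.05. The test of OXPT responses between genotypes over matched pairs exchanged labels across letters. Deviations from group means correlated between -0.0832 and 0.479 for same-letter libraries over 28 pairs of groups (14 over 0.1). The block follows the study's own model, which treats the replicate as a batch. The members and lists were chosen with earlier results of these data known. Named genes are the 7 members, the other KLF and SP genes and the markers. Named regions are those at a start site, those with the highest mean fold and those described with an SE. The rule for genes most like KLF5 could not be applied, since KLF5 lacked a start-site peak in 4 libraries. Scripts were tested on simulated data. Alternatives tried are given in the closing section. Other marks, the input libraries and the expression data were not analysed here. A marker result and a sequence are not reported here.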

Additional observations from a re-analysis of the deposited data

Results flagged for a closer look

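The change of KLF5 peak number after OXPT had opposite signs in WT and KO cells for both esiRNAs. On the scale of log2(peak number + 1) the mean change was -0.757 in WT esiCT and 0.792 in KO esiCT cells, and -0.743 in WT esiHDAC4 and 0.611 in KO esiHDAC4 cells. Each matched pair moved in the direction of its genotype. The test of the difference over 8 pairs, exchanged across replicate letters (exact permutation p = 0.0286), did not pass after adjustment over all genes (adjusted p = 0.412). It was chosen after the values had been seen. The length of the whole peak list was also lower after OXPT in 4 of 4 WT pairs and higher in 3 of 4 KO pairs. Per 10000 peaks of the library the difference was 0.47 (exact permutation p = 0.0857).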

How the results depend on the processing

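Of the alternative values, 287 of summary results kept their direction and side of the threshold (for counts, stayed within 1.5 times) and 6 moved. Of those for single genes 413 kept both, 40 turned sign and 7 newly passed the threshold. For KO against WT by summit fold, 1 member region (KLF3 intronic) was called when regions from 12 or more libraries were tested. Of the 4095 regions in that test 79 (1.93%) were called. By peak number KO against WT, 1777 of 17651 genes (10.1%) and no member were called with 50 kb windows and all libraries. The shares of all genes called in the following alternatives are not given here. With 100 kb windows 1 member was called (KLF10, -1.25, exact permutation adjusted p = 0.0402). Leaving out 1 library gave 0 to 2, with 2 without WT esiCT OXPT replicate B (KLF2, KLF9) or KO esiCT OXPT replicate A (KLF2, KLF4), and 1 without WT esiHDAC4 UNT replicate A (KLF2) or WT esiHDAC4 OXPT replicate A (KLF4). The sign for KO against WT turned per 10000 peaks (KLF3 0.211, KLF5 0.340), in replicate A alone (KLF3 0.0687, KLF5 0.0572) and in the 6000 peaks of lowest q (KLF3 0.0904, KLF5 0.252, KLF6 0.226, KLF9 0.188). For OXPT and esiHDAC4 every alternative was followed for KLF5 and KLF6. For OXPT the sign turned for KLF6 with −log10 q of at least 10 (-0.396), with 100 kb (-0.00358), in replicate A (-0.0398) and in the 6000 peaks (-0.283), for KLF5 in replicate A (0.00744), and for the KLF5 region without centring (-0.108). For esiHDAC4 it turned for KLF5 per 10000 peaks (0.0150). Of the other members, seen per 10000 peaks, in replicate A and in the 6000 peaks, it turned for OXPT for KLF9 in replicate A (0.146) and for KLF3 (-0.316) and KLF10 (-0.330) in the 6000 peaks, and for esiHDAC4 for KLF2 (0.167), KLF3 (0.237) and KLF10 (-0.0660) in the 6000 peaks and for KLF10 per 10000 peaks (-0.00333). The cause was not tested. The replicate A and 6000-peak alternatives were chosen after seeing the data.

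With 1 library left out, the KLF5 region ranged from -0.245 to 0.556 for the difference of OXPT responses, -0.0467 to 0.127 for OXPT and -0.0952 to 0.0762 for esiHDAC4. KLF5 peak number ranged from -0.279 to 0.188 for OXPT and -0.317 to 0.151 for esiHDAC4, and KLF6 from -0.358 to 0.239 for OXPT.

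Without the replicate block the KLF3 intronic region was not called (limma, adjusted p = 0.146, with 0 of 4095 regions called). No member was called without it in the comparisons of regions present in all libraries, peak number and SEs, as with it, and adjusted p for KO against WT by peak number were 0.222 for KLF5, 0.160 for KLF6 and 0.133 for KLF2 (exact permutation tests). The block rests on the study's account of the replicate as a batch, since the correlations alone show no pairing in every pair of groups. List length limits what a missing peak can show.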

Other observations

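Outside the 50 kb window of KLF5, SEs were called at chr13:73325002-73341721, 247 kb beyond the end of the gene, in 2 libraries, both WT esiCT UNT. At chr13:73403946-73430509, 326 kb beyond it, they were called in 7 libraries, 4 WT and 3 KO.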
